A study of Mus musculus with 28 samples.

Results

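The 8 genes described here, Th, Ddc, Slc18a2, Slc6a3, Pitx3, Nr4a2, En1 and Aldh1a1, mark the dopamine neurons of the midbrain. They were taken as a list of known markers, found on the array through the transcript accession of each probe, and are 8 of the 20656 gene symbols that the array names. The list holds 11 probes, and where a gene had more than 1, the probe with the highest mean level was used. For testing, a probe had to rise well above background somewhere in every series, and 7 of the 8 genes passed while En1 did not.

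Whole brains came from 3 untreated males of strain C57BL/6J, 3 weeks old and raised free of pathogens. They were frozen, cut from end to end and pooled into fractions, of 100 sections of 5 micron each by the labels. The study's text gives a greater fraction thickness for brains of this age, so places are given as fraction numbers. Mouse 1 gave 12 coronal fractions, mouse 2 gave 6 horizontal fractions and mouse 3 gave 10 sagittal fractions, and total RNA of each fraction was hybridised to 1 array, 28 in all. Every position was therefore measured a single time in a single mouse, plane and mouse are the same thing in this design, and p-values measure only the scatter between fractions of 1 brain. A fraction is a slab of whole tissue, so fewer cells of a type and less RNA per cell cannot be told apart. Coronal fraction 12 may be wider than the rest, since its label adds a 13th fraction to it. Levels are log2 signals relative to the 75th percentile of all probes on the array, so 1 unit is a doubling, and levels of different probes are not set against each other.

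The order of the fractions was checked with marker genes of known places. In the coronal series, the olfactory gene Omp stood at 7.02 and 7.04 in fractions 11 and 12 and between -2.49 and 1.39 in the other 10. Gabra6, a receptor subunit of cerebellar granule cells, lay between 2.63 and 4.91 in fractions 1 to 4 and between -2.88 and -6.54 in fractions 5 to 12, where it was well above background only in fraction 5. The coronal numbers thus ran from the cerebellum and hindbrain to the olfactory bulb. In the sagittal series, the serotonin transporter gene Slc6a4, used in the raphe nuclei at the midline, was highest in fractions 5 (0.87) and 6 (-0.60), and at most -2.70 in the other 8. In the horizontal series, the mean of 8 genes of the hypothalamus, which lies at the base of the brain, each relative to its own mean, was highest in fractions 6 (4.18) and 5 (2.09). The 75th percentile of the signal ranged from 135 to 574, the lowest in sagittal fraction 1. Horizontal fraction 6 and sagittal fraction 1 each held the series' highest level of 30.5% of the 32364 tested probes, so these fractions stood apart from the others of their series.

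Dopamine is made from tyrosine in 2 steps. Tyrosine hydroxylase, the product of Th, makes L-DOPA and limits the rate, and the decarboxylase encoded by Ddc turns L-DOPA into dopamine. The vesicular monoamine transporter encoded by Slc18a2 packs the amine into synaptic vesicles, and the dopamine transporter encoded by Slc6a3 takes it back up from the cleft. Th is also used by noradrenaline and adrenaline neurons and by dopamine cells of the olfactory bulb and hypothalamus, whereas Ddc and Slc18a2 serve serotonin neurons as well. Pitx3, Nr4a2 and En1 encode transcription factors needed to form and keep midbrain dopamine neurons, and Aldh1a1 encodes a retinaldehyde dehydrogenase found in a ventral set of them. The largest groups of these neurons lie in the substantia nigra and the ventral tegmental area, in the ventral midbrain.

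Promoter windows are shown for the 3 shared genes and for Slc6a3, because the genes of the shared pathway differed in where they peaked. Each runs from 250 bases before to 50 after a transcription start in RefSeq (build GRCm38.p6), and a start was found for all 8 genes (10 windows). Capitals mark the letters searched on both strands: TGACGTCA, the cyclic AMP response element; AAAGGTCA, the element read by single NR4A receptors such as the product of Nr4a2; and TAATCC, read by homeodomain factors of the Pitx type. The search for the first was chosen after the sequences had been seen. Positions count the start base as 0.
Th, chr7:142899946-142900245, minus strand: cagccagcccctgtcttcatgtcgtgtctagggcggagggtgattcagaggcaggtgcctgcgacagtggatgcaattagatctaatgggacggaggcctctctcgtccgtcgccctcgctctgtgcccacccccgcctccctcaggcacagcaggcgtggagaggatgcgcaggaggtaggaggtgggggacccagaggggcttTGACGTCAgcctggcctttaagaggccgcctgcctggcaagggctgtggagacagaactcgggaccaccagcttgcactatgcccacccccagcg
Slc18a2, chr19:59260628-59260927, plus strand: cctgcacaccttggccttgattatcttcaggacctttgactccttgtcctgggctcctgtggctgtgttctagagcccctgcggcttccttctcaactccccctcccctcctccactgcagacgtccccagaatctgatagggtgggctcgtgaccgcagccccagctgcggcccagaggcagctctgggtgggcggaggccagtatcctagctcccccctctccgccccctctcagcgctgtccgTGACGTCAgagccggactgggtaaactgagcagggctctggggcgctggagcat
Ddc, second start, chr11:11898095-11898394, minus strand: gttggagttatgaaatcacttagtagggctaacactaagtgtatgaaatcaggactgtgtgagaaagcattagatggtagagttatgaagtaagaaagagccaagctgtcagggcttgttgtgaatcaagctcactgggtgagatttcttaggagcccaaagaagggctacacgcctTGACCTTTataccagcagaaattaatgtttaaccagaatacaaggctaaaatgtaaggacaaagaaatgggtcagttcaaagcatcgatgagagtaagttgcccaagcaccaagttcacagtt
Slc6a3, chr13:73536497-73536796, plus strand: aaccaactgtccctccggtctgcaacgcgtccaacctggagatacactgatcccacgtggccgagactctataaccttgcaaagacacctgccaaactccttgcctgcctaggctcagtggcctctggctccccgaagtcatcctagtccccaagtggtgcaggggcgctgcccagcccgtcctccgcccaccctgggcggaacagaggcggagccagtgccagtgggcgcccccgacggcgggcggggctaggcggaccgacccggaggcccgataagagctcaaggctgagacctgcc

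TGACGTCA reads the same on both strands. It began at position -45 in Th and at -4 in Slc18a2, and was in no other window of the 8 genes, against 1.79% of the 32851 RefSeq mouse promoters of this length. AAAGGTCA was found in the second window of Ddc, on the opposite strand as TGACCTTT from position -73, and occurs in 1.51% of all promoters. TAATCC, present in 7.06% of all promoters, was in none of the 10 windows. The window of Slc6a3 held none of the 3 motifs. These matches describe letters and not binding.

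**Figure D1:**
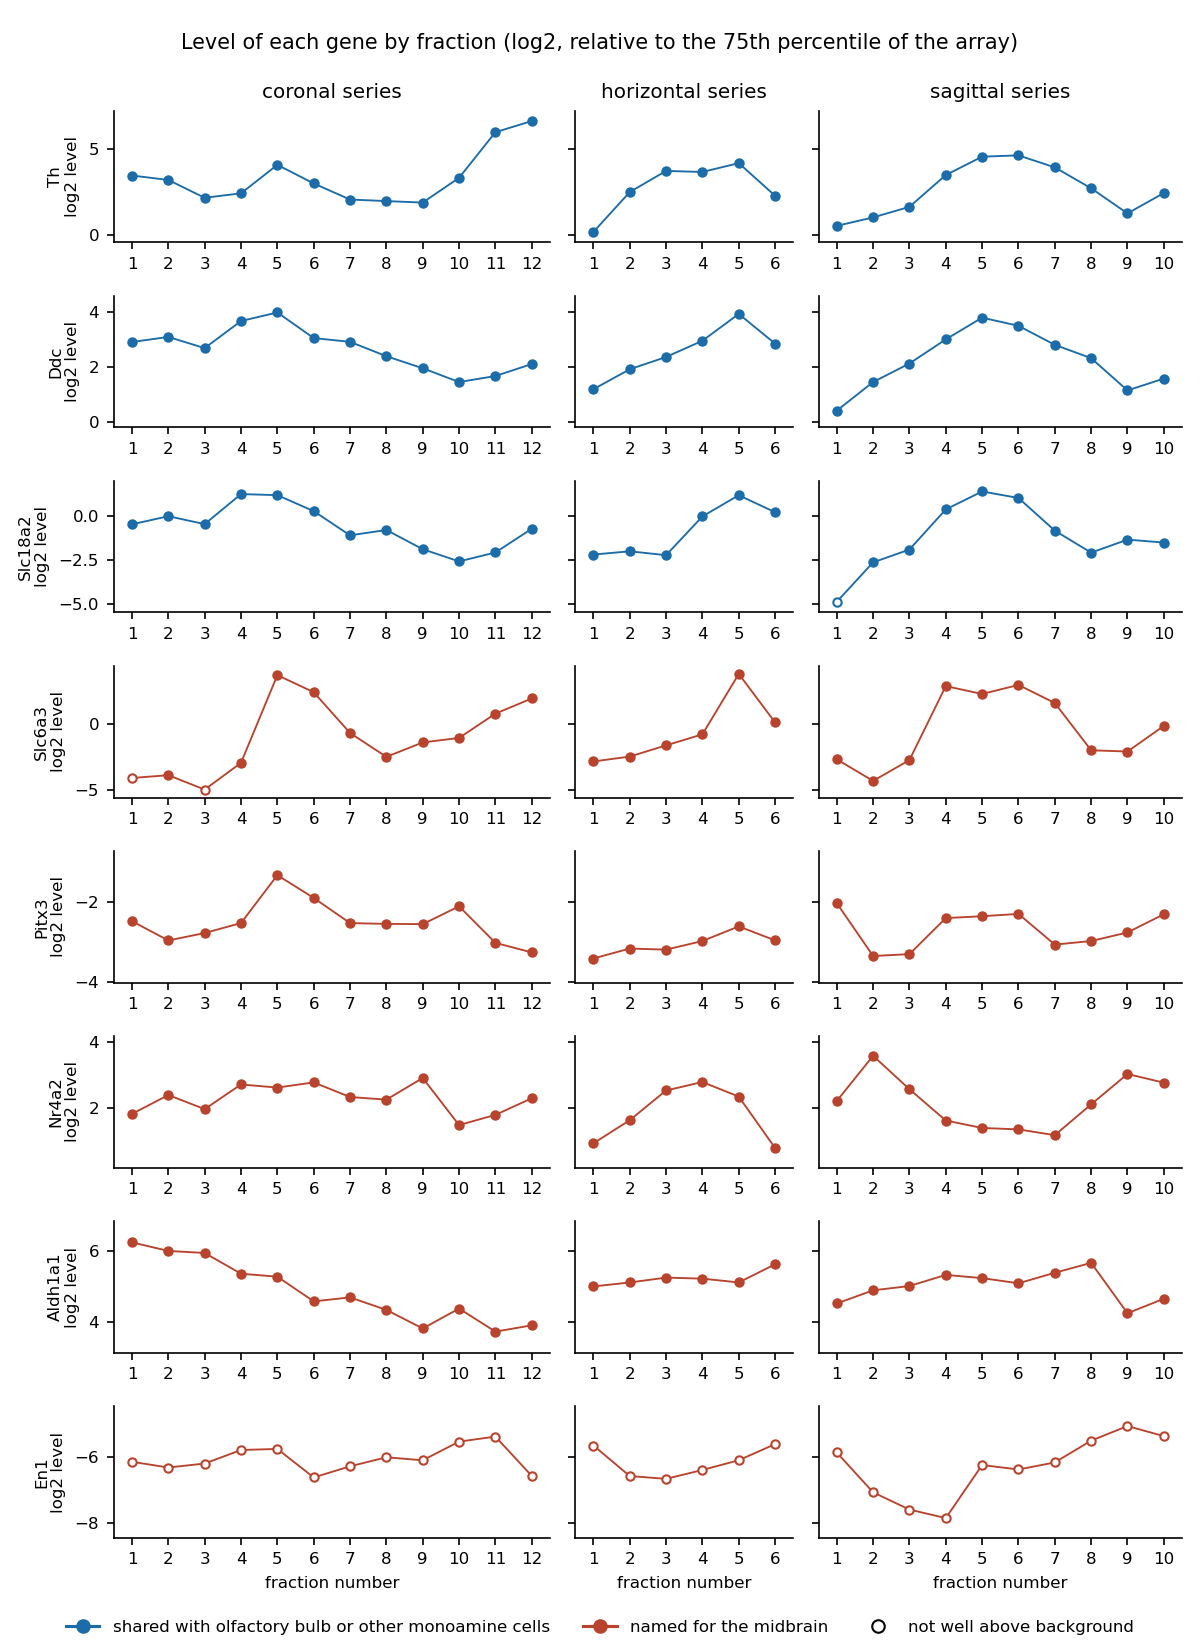
Level of each of the 8 genes (vertical axis, log2 relative to the 75th percentile of the array, own scale per row) in every fraction of the coronal, horizontal and sagittal series (horizontal axis, fraction number); open points were not well above background. Slc6a3 rises sharply at coronal fraction 5 and horizontal fraction 5, Th peaks there too but is highest at coronal fractions 11 and 12, and En1 is open throughout.

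Tyrosine hydroxylase varied along all 3 axes. In the coronal series Th ran from 1.87 in fraction 9 to 6.63 in fraction 12, with a median of 3.09. It formed separate peaks, at 4.07 in fraction 5 and at 5.98 and 6.63 in fractions 11 and 12, and stood at 3.45 in the most caudal fraction. In the horizontal series the 6 levels were 0.15, 2.48, 3.72, 3.66, 4.17 and 2.27. Th was thus lowest in the first fraction of that series and highest in the fifth. In the sagittal series it ran from 0.51 in fraction 1 to 4.63 in fraction 6, with a median of 2.56. Its 4 central sagittal fractions were all above the 6 outer ones.

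The decarboxylase gene had a single broad peak on each axis. Ddc ran from 1.46 in coronal fraction 10 to 3.97 in fraction 5, with a median of 2.79. It was 1.20, 1.92, 2.36, 2.95, 3.91 and 2.84 in the horizontal series. In the sagittal series it went from 0.42 in fraction 1 to 3.78 in fraction 5, with a median of 2.22. Unlike Th, it stood at only 1.68 and 2.11 in coronal fractions 11 and 12, among its lower coronal levels.

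The vesicular transporter followed Ddc. Slc18a2 was highest in coronal fractions 4 and 5, at 1.25 and 1.19, and lowest in fraction 10, at -2.57, with a coronal median of -0.59. Horizontal levels stayed between -2.22 and -1.996 in fractions 1 to 3 and rose to -0.015, 1.19 and 0.22 in fractions 4 to 6. Sagittal levels ran from -4.87 in fraction 1, where the probe was not well above background, to 1.40 in fraction 5, with a median of -1.42. Across the 28 fractions Ddc and Slc18a2 had a Pearson r of 0.92, and over coronal fractions 1 to 10 of 0.96. Both genes also moved with the overall signal of the array, with an r of 0.73 (Ddc) and 0.64 (Slc18a2) between their level and the log2 of the array's 75th percentile over 28 fractions. These correlations share the arrays and neighbouring fractions, and the part of array signal in the patterns was not tested.

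The dopamine transporter gene spanned the widest range of the 7 tested genes in each of the 3 series. Slc6a3 ran from -4.93 in coronal fraction 3 to 3.73 in fraction 5, at least 324-fold, with a coronal median of -1.19. Coronal fraction 4, next to the peak, stood at only -2.91, while fraction 6 stood at 2.43 and fraction 7 at -0.65. The transcript was not well above background in coronal fractions 1 and 3. Going rostrally it fell to -2.46 in fraction 8 and stood at 0.81 and 1.96 in fractions 11 and 12, so its second highest stretch lay in the olfactory fractions although it is counted among the genes of the midbrain.

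On the other axes Slc6a3 was also narrow. The 6 horizontal levels were -2.80, -2.44, -1.59, -0.75, 3.82 and 0.15, so fraction 5 lay 3.67 above the next highest. Sagittal fractions 4 to 7 held 2.89, 2.30, 2.98 and 1.62. The other 6 sagittal fractions lay between -4.27 and -0.12. The highest of the outer fractions was fraction 10, at the edge of the brain.

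Among the transcription factor genes, Pitx3 was dim but had its coronal peak in the same place. Pitx3 ran from -3.26 in coronal fraction 12 to -1.33 in fraction 5, with fraction 6 next at -1.90 and a median of -2.54. Its horizontal levels went from -3.41 in fraction 1 to -2.61 in fraction 5. Sagittal levels ran from -3.35 in fraction 2 to -2.03 in fraction 1. Its signal passed the background test on all 28 arrays, but lay only 0.23 to 3.44 above the dimmest probe so called on the same array. Over coronal fractions 1 to 10, Pitx3 and Slc6a3 had an r of 0.90, while over all 28 fractions the r was 0.42.

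Nr4a2 had another pattern. Its coronal levels stayed between 1.47 (fraction 10) and 2.91 (fraction 9), with a median of 2.31 and no separate peak at fractions 5 and 6, where it stood at 2.62 and 2.78. Horizontal levels were 0.91, 1.62, 2.53, 2.79, 2.34 and 0.77. Sagittal levels were lowest near the midline, between 1.16 and 1.61 in fractions 4 to 7, and between 2.10 and 3.59 in the other 6. Nr4a2 was thus high where Slc6a3 was low in the sagittal series. Neurons of the claustrum and deep cortical layers are known to use Nr4a2 as well.

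Aldh1a1 was highest at the caudal end. It fell along the coronal series from 6.25 in fraction 1 to 3.72 in fraction 11, with 5.28 in fraction 5 and a median of 4.63. Its horizontal levels lay between 5.00 and 5.63, and its sagittal ones between 4.24 and 5.67. No peak marked the fractions where Slc6a3 was high. En1, measured by 10 spots of 1 probe, passed that test on 0 of 28, and its signal, between -7.86 and -5.06, carries no order.

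The places of the highest levels can be counted over the 7 tested genes. In the horizontal series 5 of 7 (Th, Slc6a3, Ddc, Slc18a2 and Pitx3) were highest in fraction 5, as were 15.0% of all tested probes. In the coronal series 3 of 7 (Slc6a3, Ddc and Pitx3) were highest in fraction 5, where 2.56% of all tested probes were, and Slc18a2 was highest in fraction 4, with 2.82% of all. In the sagittal series 4 of 7 were highest in fraction 5 or 6, with 11.8% and 5.49% of all. This count was chosen after the levels had been seen and is a description.

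Position trends asked which genes vary smoothly along an axis, and were tested by fitting a spline of the fraction number in limma (F-test), with Benjamini-Hochberg adjustment over 32364 probes and a threshold of 0.05. In the coronal series 4 of 7 genes had a trend, against 33.7% of all tested probes: Th (fitted range 4.91, adjusted p = 0.0053), Ddc (1.78, adjusted p = 0.0055), Slc18a2 (2.87, adjusted p = 0.0065) and Aldh1a1 (2.43, adjusted p = 0.00034). All 3 genes shared with other monoamine or olfactory cells were among them, and 1 of the 4 tested genes of the midbrain. Slc6a3 had the widest fitted range, 7.55, with an adjusted p of 0.098. Its fitted curve was highest at fraction 12, although its highest level was measured in fraction 5 (3.73). The smooth curve thus did not follow that narrow peak, and the missing call does not mean little variation. Slc6a3 gained a trend without fraction 1 (8.08, adjusted p = 0.0465), in a fit that called 10501 probes in all. Adding the slide of the array as a term left 0 of the 4 calls and 241 calls over all probes, against 10910 without it (adjusted p from 0.0569 to 0.527), with fitted ranges of 4.12 (Th), 2.15 (Ddc), 3.40 (Slc18a2) and 2.33 (Aldh1a1). Slides hold runs of neighbouring fractions. The trend of Th was also lost without fraction 12 (adjusted p = 0.0803), and that of Slc18a2 with a simpler curve (adjusted p = 0.0811).

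In the horizontal series 2 of 7 genes had a trend, against 15.8% of all probes. They were Th (fitted range 3.90, adjusted p = 0.0239) and Nr4a2 (1.97, adjusted p = 0.0289), both fitted highest at fraction 4. Without fraction 3 or 4, limma called 0 probes in all (10053 and 7679 had an unadjusted p under 0.05). Neither call stood in those fits (adjusted p from 0.0658 to 0.146) or with a simpler curve (0.650 and 0.957), which called 1 probe in all, and Th also lost it without fraction 1 (0.178) and Nr4a2 without fraction 6 (0.0527). Ddc, at an adjusted p of 0.0641, gained a trend with the array median (0.0142), quantile normalization (0.0497) or normexp, another background correction (0.0209), and without fraction 5 (0.0326) or 6 (0.0478). Slc18a2 gained one with the array median (0.0309) and Slc6a3 without fraction 5 (0.0280). Over all 32364 probes, calls were 19347 with the array median, 6870 with quantile normalization and 8987 with normexp, against 5115 in the main fit. They were 5754 without fraction 5 and 1336 without fraction 6. In the sagittal series 3 of 7 had a trend, against 14.7% of all. These were Th (4.03, adjusted p = 0.0382), Ddc (3.10, adjusted p = 0.0102) and Slc18a2 (5.83, adjusted p = 0.0121), the 3 shared genes, all fitted highest at fraction 5 or 6. None of the 3 calls stood without fraction 1, the array of lowest signal (adjusted p from 0.107 to 0.123), a fit in which limma called 0 probes (5955 at an unadjusted p under 0.05), although Ddc and Slc18a2 kept it with a slide term (0.0255 each). That of Th was lost with a slide term (0.0787) and when any 1 of fractions 2, 4, 5, 6, 7 or 8 was left out (0.0506 to 0.105). Scaling to the array median also ended the calls of Th (0.0755) and Ddc (just over the threshold), quantile normalization that of Th (0.0541), and normexp that of Slc18a2 (0.0639). Without fraction 10, Slc6a3 (0.0378) and Nr4a2 (0.0407) gained a sagittal trend, in a fit that called 15244 probes in all.

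**Figure D2:**
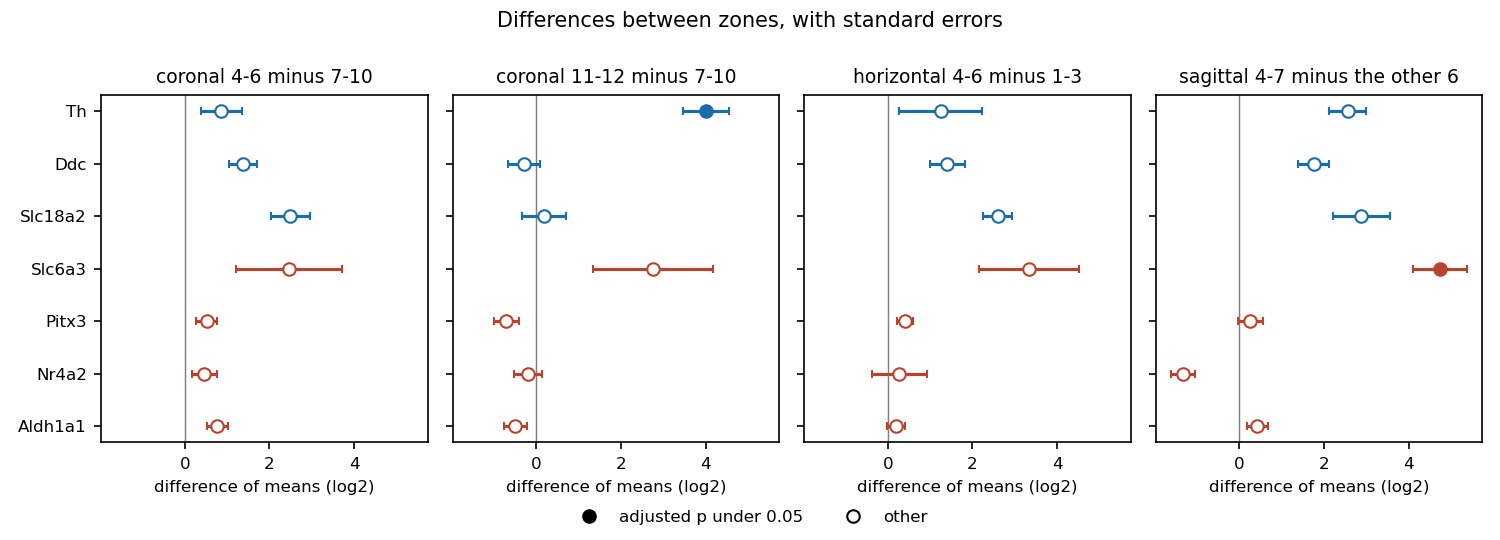
Difference of mean log2 level between zones of a series (horizontal axis) for the 7 tested genes, with bars of 1 standard error; filled points passed an adjusted p of 0.05 over all tested probes, blue genes are shared with other cells and red genes are named for the midbrain. Th is filled in the olfactory comparison (4.01) and Slc6a3 in the sagittal one (4.74).

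Zones of fractions were then compared with limma. Coronal fractions 4 to 6, taken as the level of the midbrain, were set against fractions 7 to 10, all on 1 slide. Fraction 4 also carried cerebellar signal, with Gabra6 at 2.63 there against -2.88 in fraction 5, so this zone is not midbrain alone. All 7 differences were positive, with a median of 0.86 against -0.033 over all probes, but 0 of 7 passed, as did 0.00927% of all probes upward (3 of 32364; 3386 probes in either direction, 3 of the 7 genes among them, had an unadjusted p under 0.05). Slc18a2 was at 1.25, 1.19 and 0.28 in fractions 4 to 6 against -2.57 to -0.78 in fractions 7 to 10, a difference of 2.49 ± 0.46 (SE, adjusted p = 0.147). With normexp it passed (1.97, adjusted p = 0.0339). Ddc differed by 1.38 ± 0.33 (SE, adjusted p = 0.244). These 2 genes did not overlap between the zones, as 5.84% of all probes did not in the same direction. Slc6a3 differed by 2.46 ± 1.25 (SE, adjusted p = 0.491), and its zones overlapped because fraction 4 was low.

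Coronal fractions 11 and 12 asked for the genes of olfactory dopamine cells. Th alone of the 7 passed, with a mean of 6.31 there against 2.30 ± 0.68 (SD, n = 4) in fractions 7 to 10, a difference of 4.01 ± 0.55 (SE, adjusted p = 0.0021), or 16.1-fold, where 7.3% of all probes passed upward. Leaving out each fraction in turn kept this call (highest adjusted p 0.0327), though without 11 or 12 the lone array is assumed to vary like the other zones. Th and Slc6a3 did not overlap between the zones and were higher in fractions 11 and 12, as were 17.6% of all probes. Slc6a3 differed by 2.76 ± 1.42 (SE, adjusted p = 0.208), and passed only when coronal fraction 4 was left out (adjusted p = 0.0151). Ddc (-0.29 ± 0.37), Slc18a2 (0.19 ± 0.52) and Nr4a2 (-0.20 ± 0.33) differed by less than 1 standard error, and Pitx3 was lower without overlap (-0.71 ± 0.29, adjusted p = 0.122), as 20.4% of all probes were. Slc18a2 stood at -2.06 in fraction 11 and -0.72 in fraction 12, and its difference changed sign without fraction 10 (-0.14) or 12 (-0.48). Fractions 11 and 12 lie on another slide than 7 to 10, so slide and place cannot be told apart here.

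In the olfactory fractions the olfactory bulb list rose as well, with 7 of its 9 genes called higher, against 7.3% of all probes (median difference 6.17, against -0.028 over all probes). The summed level of that list lay between 9.26 and 9.52 in fractions 11 and 12 and between 5.95 and 8.01 in fractions 7 to 10. In caudal fractions 1 to 3 it lay between 7.84 and 8.32, so the sum is not particular to the bulb. Omp stood at 1.39 in fraction 10 and between -2.49 and -1.53 in fractions 7 to 9. The bulb's share in the levels of Th and Slc6a3 in fractions 11 and 12 was not tested. Of the markers of other amine neurons, Slc6a4, Tph2 and Fev of serotonin neurons and Slc6a2 and Phox2a of noradrenaline neurons were not well above background in either fraction. Dbh (-1.24 and -2.14) and the histamine gene Hdc (-0.71 and -1.23) were above it in both, and the adrenaline gene Pnmt in fraction 12 only.

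Because Th stands before Slc6a3 in the pathway and is used by more cells, the difference of their levels on each array was followed along the coronal series. It was lowest in fractions 5 and 6, at 0.35 and 0.55, and went up on both sides, to 7.03 in fraction 2 and to 5.17 and 4.67 in fractions 11 and 12. In fractions 1 and 3 Slc6a3 was not well above background, so the differences there (7.50 and 7.08) are not exact. Only changes of this difference have a meaning, since it compares 2 probes. With all fractions as measured, fractions 11 and 12 had a mean of 4.92 against 4.25 ± 2.58 (SD, n = 10), a difference of 0.67 (exact two-sided permutation test over 66 choices, p = 0.727, where the smallest possible is 0.0152). Without fractions 1 and 3 the difference was 1.43 (exact permutation test over 45 choices, p = 0.444, smallest possible 0.0222). Both tests treat the fractions as exchangeable, although they are neighbours in 1 brain. The fractions set against 11 and 12 span both the dip at 5 and 6 and the higher values caudal to it. The size of the difference also moved with normexp and with single fractions left out, as given under the processing. The same low value returned in horizontal fraction 5, at 0.36, against 2.12 to 5.30 in the other 5. In the sagittal series it was 0.58 to 2.31 in fractions 4 to 7 and 2.54 to 5.27 in the others.

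**Figure D3:**
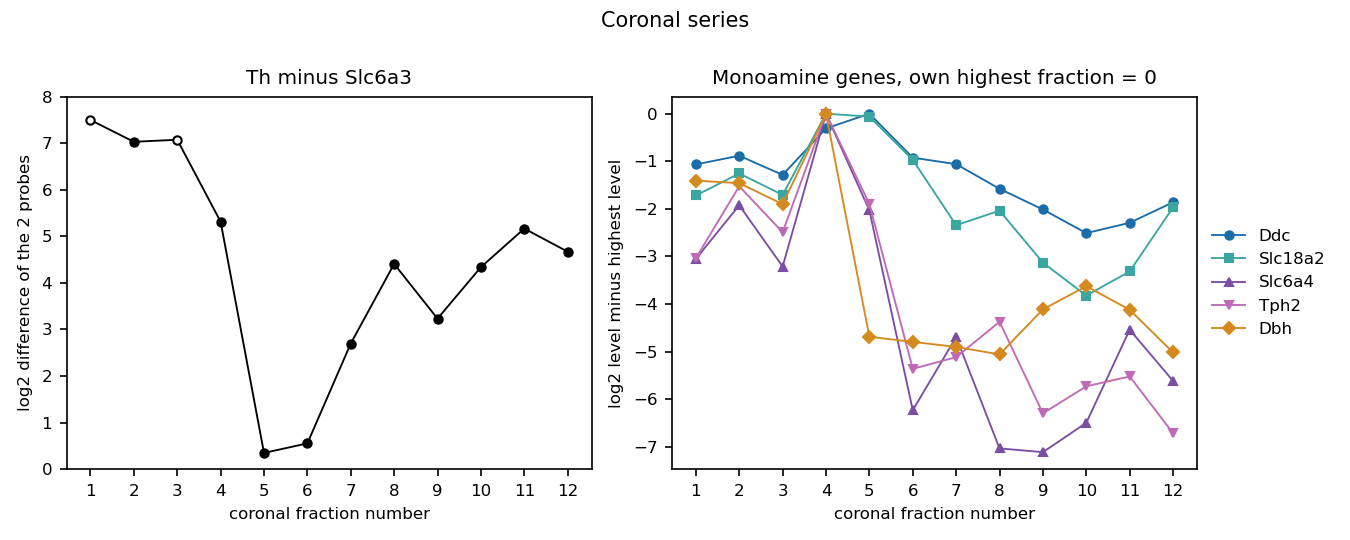
Left, log2 level of Th minus that of Slc6a3 (vertical axis) by coronal fraction, open where Slc6a3 was not well above background; right, levels of Ddc, Slc18a2, the serotonin genes Slc6a4 and Tph2, and the noradrenaline gene Dbh, each relative to its own highest coronal fraction. The left curve dips to 0.35 at fraction 5; on the right, the serotonin and noradrenaline genes are highest in fraction 4, next to the peak of Ddc.

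Markers of other amine neurons lay next to the dopamine peak. Slc6a4, the serotonin transporter, was highest in coronal fraction 4 at 1.04 and stood at -0.99 in fraction 5 and -5.19 in fraction 6, where it was not well above background. Tph2, the enzyme that starts serotonin synthesis, was 0.013, -1.89 and -5.35 in the same 3 fractions. Dbh, which turns dopamine into noradrenaline, was 2.88 in fraction 4 and -1.81 in fraction 5, and between 0.98 and 1.47 in fractions 1 to 3. Ddc and Slc18a2 were thus high both in fraction 4, with these markers, and in fraction 5, with Slc6a3, whereas Slc6a3, among fractions 1 to 10, was above 0 in fractions 5 and 6 only. The part of serotonin and noradrenaline cells in the levels of Ddc, Slc18a2 and caudal Th was not tested. In the contrast of fractions 4 to 6 with 7 to 10, 0 of 3 serotonin genes passed, against 0.00927% of all probes higher, and 3 of 3 had an unadjusted p under 0.05. Their differences ran from 0.91 (Fev) to 3.58 (Slc6a4), and both genes were well above background in only 1 of the 4 fractions 7 to 10, so these sizes are not exact. The histamine gene Hdc differed by 1.07 and did not pass, and Pnmt, at -0.81, did not pass either.

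The horizontal series was compared as fractions 4 to 6 against 1 to 3. limma called 0 of 7 genes and 0.0% of all probes upward (0 in all), while 1784 probes, Slc6a3, Ddc and Slc18a2 among them, had an unadjusted p under 0.05. Slc18a2 differed most clearly, by 2.60 ± 0.34 (SE, adjusted p = 0.543). Slc6a3 differed by 3.35 ± 1.18 (SE) and Ddc by 1.41 ± 0.42 (SE). These 3 and Pitx3 (0.41 ± 0.19, SE) did not overlap between the zones and were higher in fractions 4 to 6, 4 of 7 genes against 3.74% of all probes. Th overlapped, with 3.72 in fraction 3 above 3.66 in fraction 4.

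The sagittal contrast set the 4 fractions nearest the midline against the 6 outer ones. Slc6a3 had a mean of 2.45 ± 0.63 (SD, n = 4) near the midline and -2.29 ± 1.35 (SD, n = 6) outside, a difference of 4.74 ± 0.64 (SE, adjusted p = 0.0251), or 26.7-fold. It was the only one of the 7 to pass, as 0.133% of all probes did upward. With a slide term the difference was 4.48 (adjusted p = 0.0464), and within slides it was 3.68 among fractions 5 to 10 and 6.10 among fractions 1 to 4, where fraction 4 is the single inner one. The call was lost when any 1 of fractions 1, 4, 5, 6, 7 or 8 was left out (adjusted p from 0.0564 to 0.150, difference from 4.56 to 5.02) and when all probes were tested (adjusted p = 0.0797).

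The shared genes were higher near the midline without passing. Th differed by 2.56 ± 0.44 (SE, adjusted p = 0.0565), Slc18a2 by 2.88 ± 0.67 (SE, adjusted p = 0.116) and Ddc by 1.76 ± 0.36 (SE, adjusted p = 0.0949), and all passed without fraction 3 (adjusted p from 0.0241 to 0.0342), where calls over all probes went from 48 to 3945 (1552 higher). With the array median Th (adjusted p = 0.0083) and Slc18a2 (adjusted p = 0.0157) passed, and with normexp Th did (adjusted p = 0.0339). Together with Slc6a3, 4 of 7 genes were higher near the midline without overlap, against 4.08% of all probes. Nr4a2 went the other way, lower near the midline without overlap, with a mean of 1.37 against 2.71 (-1.34 ± 0.28, SE, adjusted p = 0.0955), as 4.36% of all probes were, and passed in the same fit without fraction 3 (adjusted p = 0.0291). Pitx3 (0.26 ± 0.29) and Aldh1a1 (0.43 ± 0.26) overlapped between inner and outer fractions. Markers of other midline cells also passed upward in this contrast, as 0.133% of all probes did. They were Hcrt of the hypothalamus (4.96, 1 of 8 on that list), Hoxb3 of the hindbrain (1 of 4) and Phox2a of noradrenaline neurons. Hoxb3 was well above background in only 1 of the 6 outer fractions, so no size is given. Phox2a was so in 4 of 4 inner and 0 of 6 outer fractions. At an unadjusted p under 0.05 were 6 of the 8 hypothalamus genes and 4 of the 4 hindbrain genes, as were 8059 of all 32364 probes. The part of these midline cells in the sagittal levels of the 8 genes was not tested.

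**Figure D4:**
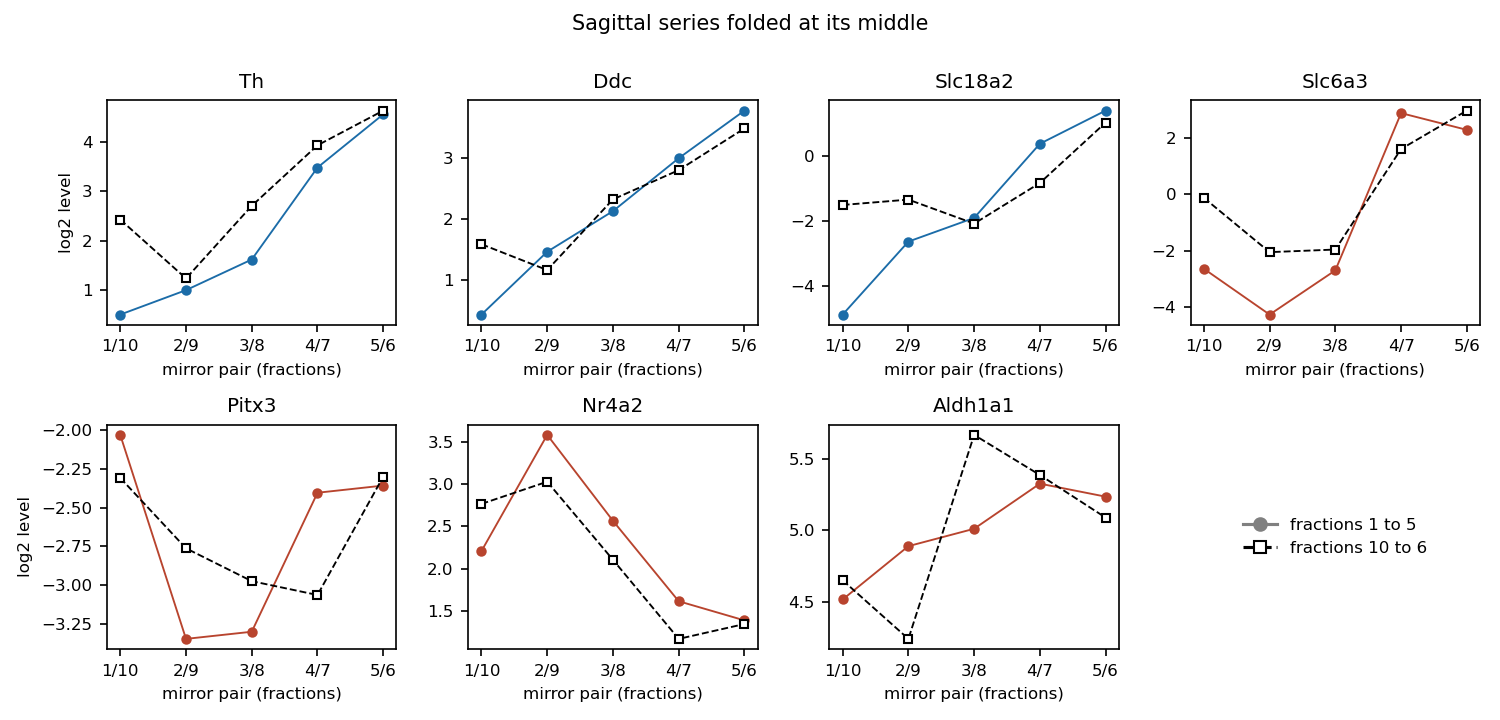
Log2 level (vertical axis) of the 7 tested genes in the sagittal series folded at its middle (horizontal axis, mirror pairs from the edges 1/10 to the middle 5/6), with fractions 1 to 5 as filled points and fractions 10 to 6 as open squares. Th, Ddc, Slc18a2 and Slc6a3 are highest near the middle on both arms and part most at the edge pair 1/10, while Nr4a2 is lowest near the middle.

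The sagittal fractions were also folded at the middle of the series, into 5 pairs. The fractions of a pair need not hold like places: Omp was -0.95 in fraction 3 and 3.42 in fraction 8. Over the 5 pairs, the median size of the difference was 0.15 for Aldh1a1, 0.29 for Ddc, 0.33 for Pitx3, 0.45 for Th, 0.46 for Nr4a2, 1.20 for Slc18a2 and 1.28 for Slc6a3. Th (0.51 against 2.42), Ddc (0.42 against 1.58), Slc6a3 (-2.64 against -0.12) and Slc18a2 (-4.87 against -1.50) each differed most in the edge pair. For Slc18a2 the difference there was 3.37 in size, with the first value not well above background, and fraction 1 is the array of lowest signal. Over all probes the median size was 0.50 in that pair and 0.19 in the middle pair. The difference of Slc6a3 between inner and outer fractions, 4.74, was larger than any of its mirror differences, the largest of which was 2.52.

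Other genes of midbrain dopamine neurons were read from a list of 20, of which 19 were tested. Against coronal fractions 7 to 10, fractions 4 to 6 were called higher for 1 of them, against 0.00927% of all probes. This was Chrna6, a nicotinic receptor subunit of these neurons (3.36 ± 0.42, SE, adjusted p = 0.0498), just under the threshold. The contrast called 6 probes in all, and 1 when any 1 of fractions 1, 2, 3, 4, 5 or 8 was left out. Whether Chrna6 kept its call in those fits was not read. Chrna6 stood at -0.48, 1.11 and -0.007 in fractions 4 to 6 and between -3.95 and -2.52 in fractions 7 to 10. Over the list the median difference was 0.88, against -0.033 over all probes, and it ranged down to -1.23 for Drd2, the receptor that striatal neurons use as well. Chrna6 and Drd2 were each well above background in 3 of the 4 fractions 7 to 10, so their differences are not exact. Near the sagittal midline 3 of 19 passed, all higher, as 0.133% of all probes did: Chrna6 (2.82), Sncg, a synuclein (3.14), and Dlk1 (2.54). Chrna6 was well above background in 5 of the 6 outer fractions, so that size is not exact either. In coronal fractions 11 and 12, 5 of 19 were called lower (Lmx1b, Sox6, Slc10a4, Tacr3 and Calb1) and 0 higher, where Th was higher and 8.78% of all probes were called lower. Names from these last contrasts were chosen after their values were seen.

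In the contrast of coronal fractions 4 to 6 with 7 to 10, limma called only 0.00927% of all probes higher, so a count of 0 says little of a list. Of 8 genes of cofactor supply and breakdown, 0 passed between coronal fractions 4 to 6 and 7 to 10 (2 at an unadjusted p under 0.05), where differences ran from -0.45 (Pts) to 1.02 (Gch1, the first enzyme of the tetrahydrobiopterin cofactor of tyrosine hydroxylase). Of 5 dopamine receptor genes 4 were tested, with 0 called there (2 at an unadjusted p under 0.05) and differences from -2.54 (Drd1) to 0.34 (Drd5). Between the same fractions, 4 to 6 and 7 to 10, 0 genes passed in the olfactory bulb list (9 tested, from Doc2g at -2.08 to Calb2 at 1.08, 1 at an unadjusted p under 0.05), the hypothalamus list (8, from Avp at -6.04 to Gal at -0.15, 2 so), the cerebellum list (4, 3 so) and the hindbrain list (4, 0 so). Avp was well above background in only 1 of fractions 4 to 6, so its size is not exact. The cerebellum genes with the smallest and largest difference, Cbln3 and Gabra6, and the hindbrain ones, Hoxa4 and Hoxb5, were well above background in 0 of the 4 fractions 7 to 10, so no difference is given. The summed cerebellum list was high in fraction 4, reaching 7.24 within fractions 4 to 6 against at most 2.48 in fractions 7 to 10, and its part in the caudal levels of Aldh1a1 was not tested.

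**Figure D5:**
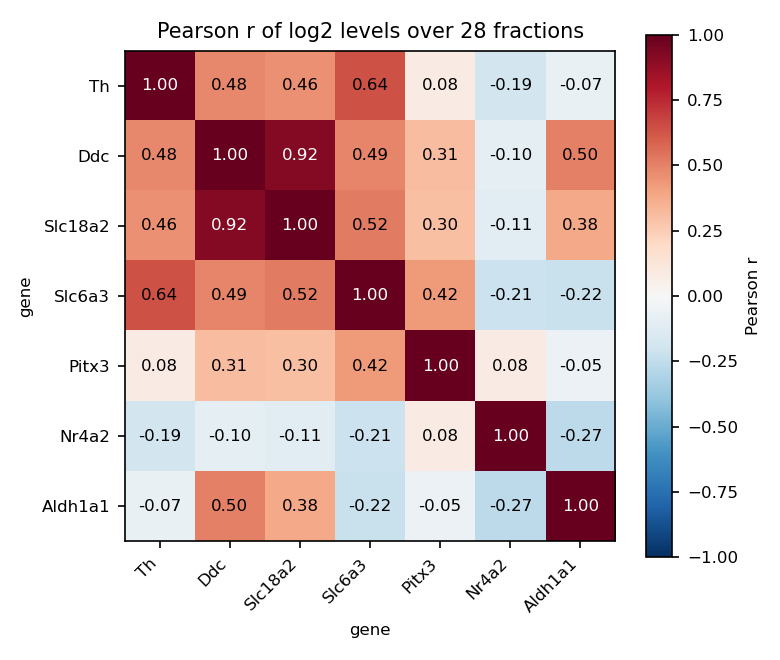
Pearson r between the log2 levels of each pair of the 7 tested genes over the 28 fractions (colour and number; both axes list the genes). Ddc and Slc18a2 are the most alike pair at 0.92, Th and Slc6a3 reach 0.64, and the values of Nr4a2 stay between -0.27 and 0.08.

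Likeness of whole profiles was described by Pearson's r over the 28 fractions, which share arrays and neighbours, so no p is given. Of 15555 other symbols, Pbx3 was most like Th (0.91), followed by Ttc39c (0.88), Epb41l4a (0.88), Arhgef16 (0.87) and Vipr2 (0.87), and 15 symbols had an r over 0.85. For Slc6a3 none did. Its nearest profiles were those of Foxa1 (0.82), Pth2 (0.81), Ntng1 (0.75), Dll1 (0.75) and Foxa2 (0.74), where Foxa1 and Foxa2 encode forkhead factors of midbrain dopamine neurons. Foxa1 was well above background in only 7 fractions, in the coronal series in fractions 5 and 6 alone, at -1.75 and -1.83. Foxa2 was so in 8 fractions, in the coronal series in fractions 4, 5 and 6, at -3.77, -1.69 and -3.09.

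A second probe was available for 3 of the 8 genes. The 2 probes of Nr4a2 had an r of 0.98 over 28 fractions, those of Ddc 0.83, and those of Slc18a2 0.84, with both probes of Slc18a2 well above background in 12 fractions. Genes with a single probe, Th and Slc6a3 among them, have no such check.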

How the data were processed

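Each of 28 brain fractions gave total RNA that was labelled with Cy3 for its own Agilent array. According to the deposited headers, the authors extracted the deposited intensity values with Agilent Feature Extraction 10.5.1.1, which subtracts background from each spot, on an array design annotated for mm9. Flags deposited with them mark outlier, saturated and well-above-background spots. A table of log2 values for 44721 probes was deposited by the authors as well, which equalled the levels used here, over the 44258 probes with a single spot that were compared, apart from an offset per array of at most 0.00758.

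Here, outlier spots (108 to 176 per array) were left out, no spot was saturated, spots of a probe were averaged, and the array's 75th percentile of log2 processed signal was subtracted. A probe counted as above background on an array where at least 0.5 of its spots did, and probes that did so somewhere in every series were tested, without 130 that had lost a spot, leaving 32364 of 55681. Accessions were matched to symbols of the RefSeq table of GRCm38.p6, used for names and promoters, which named 27229 probes. Trends were tested with limma 3.58.1 in R 4.3.3 (natural spline with 3 degrees of freedom, 2 for horizontal), zones by contrasts, and p-values were adjusted by Benjamini-Hochberg. A fold with "at least" sets the higher level against the higher of the dim level and the dimmest probe called above background on that array. The fits were also tested on simulated data, of which no outcome is reported here. The 28 arrays, 1 per position, limit the precision.

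The text names the 8 members, the 5 symbols most like Th and Slc6a3, the list genes past the threshold between coronal fractions 4 to 6 and 7 to 10, and each list's largest and smallest difference there. One item of the noradrenaline list, and that list's counts, are not reported here. The members, lists and zones were chosen with earlier results of these data known. Alternatives were the array median, quantile normalization, normexp (offset 50, on median foreground and background signals, since mean signals were not used here), the deposited log2 values, all probes, the highest-median probe, a curve with 1 degree of freedom fewer, a slide term, slide 2 alone (chosen after the slides were seen), and each fraction left out.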

Additional observations from a re-analysis of the deposited data

How the results depend on the processing

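The number of members called (for contrasts, called higher) moved from its main value as follows, besides the changes of single calls given above. The coronal trend (4) went to 0 with a slide term and ranged from 3 to 5 when a fraction was left out. The horizontal trend (2) went to 4 with the array median, 0 with a simpler curve, and 0 to 4 without 1 fraction. The sagittal trend (3) went to 1 with the array median and 0 to 5 without 1 fraction. The coronal contrast of fractions 4 to 6 with 7 to 10 (0) went to 1 with normexp. That of fractions 11 and 12 (1) ranged from 1 to 2 without 1 fraction. The sagittal contrast (1) went to 3 with the array median, 2 with normexp, 0 with all probes, and 0 to 4 without 1 fraction. The Th minus Slc6a3 difference of 0.67 ranged from 0.24 to 1.03 without 1 fraction, and was 1.45 with normexp and 1.43 without fractions 1 and 3 together (chosen after seeing the data).

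Of 819 values of single genes recomputed, 8 changed sign, none of them past the threshold. In the contrast of coronal fractions 11 and 12 these were Nr4a2 with the array median (0.029; without 1 fraction from -0.46 to 0.051, positive without fraction 9 at 0.021) and Slc18a2 (from -0.48 to 0.86 without 1 fraction, negative without fraction 10 at -0.14). Nr4a2 in the horizontal contrast ranged from -0.13 to 0.88 without 1 fraction, at -0.11 without fraction 1, and Pitx3 in the sagittal contrast was -0.12 with normexp. The array median moved the median of all probes from -0.028 to 0.20 in coronal fractions 11 and 12, where 4281 of 5885 calls were then higher against 2362 of 5203, from -0.033 to 0.15 in fractions 4 to 6, from -0.047 to -0.20 in the horizontal contrast and from -0.076 to 0.38 in the sagittal one, where normexp gave -0.23. Between coronal fractions 4 to 6 and 7 to 10, 3 of 6 calls over all probes were higher, 13 of 16 with the array median, 4 of 5 with quantile normalization, 11 of 20 with normexp, 1 of 1 with all probes and 2 of 2 on slide 2 alone. All probes gave 2897 calls in fractions 11 and 12. Calls in the sagittal contrast (48) were 136 with the array median, 31 with quantile normalization, 21 with a slide term and 2 with all probes, and the horizontal one (0) had 3 with the array median. With all fractions kept, sagittal trends over all tested probes ranged from 337 (array median) to 19184 (all probes, of 55551) around 4767. Horizontal ones ranged from 1 (simpler curve) to 19347 (array median) around 5115, and coronal ones numbered 241 with a slide term and 10910 without it. Leaving out 1 fraction gave 0 (without 1) to 15244 (without 10) sagittal, 0 (without 3 or 4) to 5754 horizontal and 7938 to 11145 coronal trends. It gave 0 (without 4) to 3945 (without 3) calls in the sagittal contrast, with 2 without 6 and 5 without 5, 1 to 24 (without 7) in coronal fractions 4 to 6, and 995 (without 12) to 6492 (without 10) in 11 and 12. Causes were not tested. No paired analysis was possible because fraction numbers of different planes mark different places and no test compares planes. Signal over background limits Pitx3 and En1.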

Other observations

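Profiles of the other members were described in the same way, with partners chosen after their values were seen. Ret, a receptor for growth factors of the GDNF family that dopamine neurons use, had an r of 0.92 with Ddc and 0.90 with Slc18a2 over the 28 fractions, where 102 symbols had an r over 0.85 with Ddc and 14 with Slc18a2. Slc17a6, a glutamate transporter gene of brainstem and thalamic neurons, had 0.87 with Slc18a2. Ret stood at 0.65 in coronal fraction 5, its highest coronal level, and between -2.27 and -1.51 in fractions 7 to 10. It was also high caudally, at -0.07, 0.26 and 0.25 in fractions 1 to 3, above fractions 4 (-0.36) and 6 (-0.23). For Nr4a2 the nearest symbol was Zfp963, at 0.56, which was well above background in only 13 of the 28 fractions. CpG dinucleotides numbered 52 in the promoter window of Nr4a2, 23 in En1 and 20 in Slc6a3 and in Pitx3. They numbered 15 in Th, 12 in Slc18a2, 5 and 2 in the windows of Ddc, and 3 and 1 in those of Aldh1a1. Over all promoters the median was 7 and the upper quartile 20.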
